A study of Mus musculus with 28 samples.

Results

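The 8 genes described here encode subunits of voltage-gated sodium channels, and they were taken by name: the pore-forming alpha subunits Scn1a, Scn2a1, Scn3a, Scn8a and Scn9a and the auxiliary beta subunits Scn2b, Scn3b and Scn4b. All 8 were found in the exonic table of 23453 genes and in the intronic table of 20422 genes. Scn2a1 is the older symbol of Scn2a and is kept as the tables write it. The tables held 28 single cells of the mouse brain. The sample labels named 8 astrocytes and 12 neurons from primary culture of the cortex of C57/BL6 mice and 8 interneurons from acute slices of C57/BL6/N mice. The cultured cells were picked with a pipette, and the interneurons were collected through a patch-clamp pipette. No treatment and no animal or culture was named for any cell. The protocol text that the labels gave for the cultured cells described a male mouse of 3 months and fixed, MAP2-stained brain sections rather than a culture, and no age was found for the slice mice. The libraries of the cultured cells were made with the TruSeq Nano DNA kit and those of the interneurons with a TruSeq Stranded kit, on different sequencers, so preparation and cell source cannot be told apart.

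The columns of the tables carried codes that matched no sample label, so no cell was assigned to a labelled cell type and no test between cells was made. The cells were described in 3 blocks of column codes. The first BRP block held BRP564 and BRP566 to BRP572, 8 cells in all, and was presumed to be the astrocytes. The second BRP block held the other 12 BRP cells, presumed neurons, and the F block held 8 cells, presumed interneurons. These identities rest on the sizes of the blocks and on marker genes and are not given by the labels. Levels are given as CPM, the exonic counts of a gene per 1000000 exonic counts of the cell, and different genes are compared only as CPM per kb of annotated exon. A value in 1 cell carries counting error only, and a count of 0 allows a level of up to 3 counts, which is 3.58 CPM in the shallowest cell, F16.

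The marker genes largely separated the blocks, with exceptions. All 8 astrocyte markers had a count in every cell of the first BRP block, with summed levels of 1522 to 6174 CPM, and the summed level of the 6 neuron markers there was 299 to 801 CPM. All 6 neuron markers had a count in every cell of the second BRP block, at 4737 to 8469 CPM together. The astrocyte markers summed to 191 to 2463 CPM in that block. Slc1a2, one of these markers, had a count in all 12 cells there, at 164 to 2459 CPM with a median of 804. In the first BRP block it ran from 43.2 through 192 to 470 CPM, so this marker was higher by median in the second block. BRP528 and BRP529 carried Aqp4, an astrocyte water channel, at 142 and 418 CPM. BRP528 also carried 1136 CPM of Gad1, the GABA-synthesising enzyme. The GABAergic markers summed to 478 to 11671 CPM in the F block. In the first BRP block they summed to 0 to 42.6 CPM and in the second to 0.0572 to 2714 CPM. Gad2 had at least 10 counts in 9 of 12 cells of the second block. The 5 interneuron class markers (Lhx6, Adarb2, Sst, Pvalb and Vip) did not set the F block apart. They summed to 0 to 215 CPM there, 0.231 to 182 CPM in the first BRP block and 0 to 390 CPM in the second. The neuron markers summed to 1608 to 16746 CPM in the F block, with Rbfox3 in 4 of 8 cells. The astrocyte markers there summed to 0 to 4352 CPM with a median of 100.2, carried by Slc1a2 (7 of 8 cells), Aldoc (5 cells) and Gja1 (4 cells), while S100b and Aldh1l1 were at 0 in all 8 cells. F7 held 3210 CPM of Olig1, an oligodendrocyte lineage factor, and 4350 CPM of Slc1a2, the main glutamate transporter of astrocytes, and F16 held 2093 CPM of Csf1r, a microglial receptor. Each was a single marker that made up nearly all of the highest F sum of its list. Those sums were 3210 CPM for oligodendrocyte precursors, 4352 CPM for astrocytes and 2093 CPM for microglia. The other markers of these lists were near 0 in these cells, so the values name no cell type. The oligodendrocyte precursor markers summed to 563 to 1140 CPM in the first BRP block, 0.282 to 1277 CPM in the second and 0 to 3210 CPM in the F block, and the endothelial markers stayed at or under 31.5 CPM in every cell, with Cldn5 at 0 throughout. The part of these other cell types in the values below was not tested.

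The F block also stood apart in depth. Exonic totals were 12969692 to 19798892 counts in the first BRP block, 17483754 to 26770944 in the second, and 838343 to 14831505 in the F block. Intronic counts made up 5.31% of the counts of F1 and 36.3% to 63.0% of those of the other 7 F cells. F11 and F12 were more alike in level than any other pair of F cells, with a Pearson correlation of log2(CPM + 1) across genes of 0.949, against -0.0505 to 0.325 for the other 27 pairs. Of the genes found in either cell, 36.3% were found in both, against 17.5% to 46.5% for the other F pairs. That was above the other F pairs with F12 (18.6% to 27.2%), which had 3680 genes with a count, and within those with F11 (19.8% to 45.0%). The counts of F11 and F12 still differed by more than sampling noise. Their chi-square per degree of freedom was 17.6, against 1261 to 4011 for the other F pairs. Whether they hold the same cell was not tested. F11 and F12 are given as separate columns, with values without them where they matter.

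Voltage-gated sodium channels open on depolarization and carry the inward current of the rising phase of the action potential. The alpha subunit forms the pore and the voltage sensors and is enough to make a channel, while beta subunits are single-pass membrane proteins with an immunoglobulin-like domain that change gating, surface level and cell adhesion. In the brain, Scn1a (Nav1.1) is known for its role in fast-spiking inhibitory neurons, Scn2a (Nav1.2) is prominent in young axons and excitatory neurons, Scn3a (Nav1.3) is highest before birth, and Scn8a (Nav1.6) is the main channel of the mature axon initial segment and nodes. Scn9a (Nav1.7) is best known from peripheral sensory and sympathetic neurons.

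The alpha members on chromosome 2 share some stretches of identical sequence, which matters for counting them. Over the coding sequences of GENCODE M21 transcripts (GRCm38), the longest identical run was 188 bases between Scn1a and Scn2a1 and 184 between Scn3a and Scn9a. Of all 50-base windows of their transcripts, 4.03% of those of Scn1a, 5.62% of Scn2a1, 6.49% of Scn3a and 4.04% of Scn9a occurred in another sodium channel gene examined, against 0.0374% of Scn8a and 0 of the beta members. How reads in such windows were assigned is not given in the sources used here. A small count of one of these genes beside a large count of another that shares windows with it is therefore uncertain.

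The genes lie in 3 places of the genome. Scn3a (chr2:65457118-65567627, minus strand), Scn2a1 (chr2:65620771-65767447, plus strand), Scn1a (chr2:66270778-66440840, minus strand) and Scn9a (chr2:66480080-66634962, minus strand) form a cluster on chromosome 2, with Scn8a (chr15:100869858-101045938, plus strand) alone on chromosome 15. The 3 beta members share chromosome 9 and the plus strand, with Scn3b at chr9:40269217-40291618 and Scn2b (chr9:45117782-45130070) next to Scn4b (chr9:45138395-45154152).

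**Figure D1:**
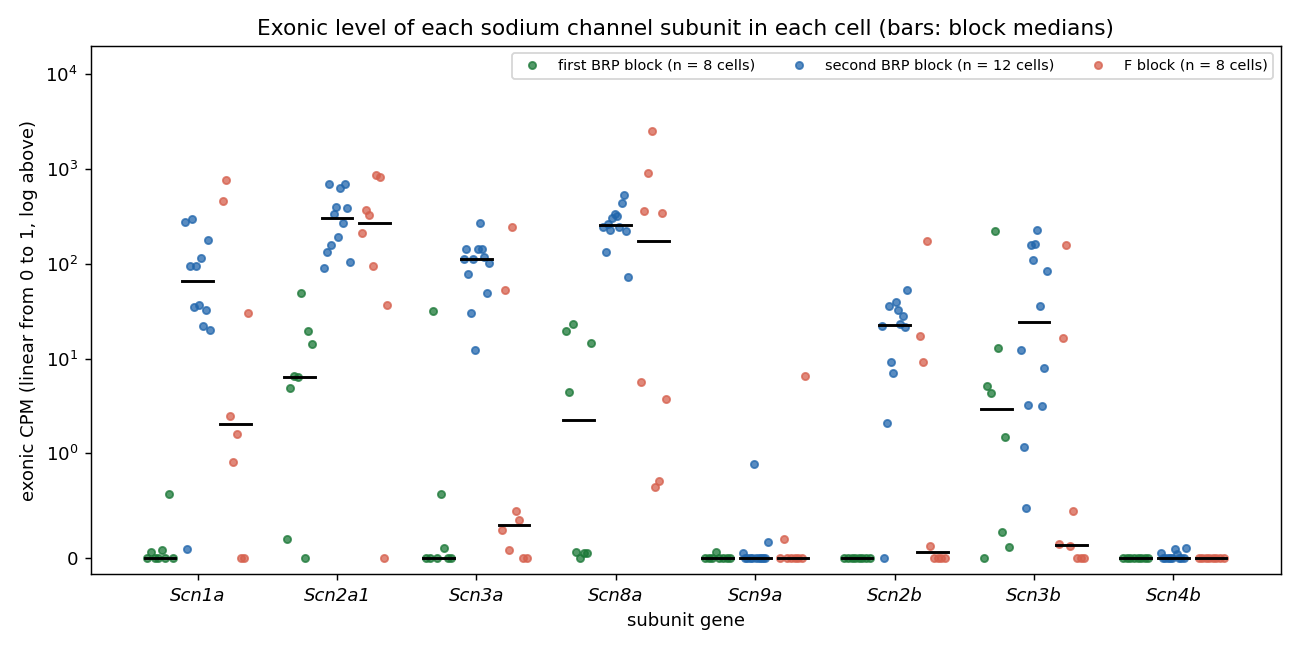
Exonic level of each of the 8 subunit genes in CPM (vertical axis, linear from 0 to 1 and logarithmic above) in each of the 28 cells, coloured by block, with bars at the block medians. Scn2a1 and Scn8a of the second BRP block (at least 90.0 and 72.1 CPM) lie above every cell of the first BRP block, while the F cells spread from 0 or near 0 to the highest values plotted.

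Scn2a1 and Scn8a were the alpha genes found most widely. Each cell of the second BRP block lay above each cell of the first BRP block for both of these genes and for none of the other 6 members, and the same held under the other 4 scalings tried. Among 11105 genes with at least 10 exonic counts in at least 8 cells, 3.7% had every cell of the second block above every cell of the first. Of the 8 members 6 passed that count filter, Scn9a and Scn4b did not, and since the filter can be passed through the block where a gene is high, the 2 genes are a description and not a test. No member showed such a gap in the other directions, where the shares over all genes were 4.49% for the first BRP block above the second, 28.3% for the first above the F block, 12.7% for the second above the F block, 0.045% for the F block above the first and 0% for the F block above the second.

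Scn2a1 had a count in 7 of 8 cells of the first BRP block, in 12 of 12 of the second and in 7 of 8 of the F block. Its level ran from 0 through a median of 6.40 to 49.3 CPM in the first block and from 90.0 through 302 to 700 CPM in the second. The F cells ran from 0 in F16 through 267 to 857 CPM in F11. The F cells other than F16 and F24 (36.4 CPM) lay within or above the range of the second block. With DESeq2 size factors instead of exonic totals the F median became 1127, so the place of the F block relative to the second block depended on the scaling. Without F11 and F12 the F median of Scn2a1 was 152 CPM.

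Scn8a had a count in 7, 12 and 8 cells of the 3 blocks. The first BRP block split into 4 cells at 4.39 to 23.4 CPM and 4 cells at 0 or a single count. In the second BRP block the level ran from 72.1 in BRP543 through a median of 255 to 531 CPM in BRP541. The F cells ran from 0.683 through 175 to 2501 CPM: F7 and F6 (917 CPM) lay above all BRP cells, F2 and F16 (365 and 344 CPM) within the second block, and F1, F24, F12 and F11 at 5.60 CPM or less. With 4 high and 4 low cells, the F median of Scn8a turned on single cells: it was 5.60 CPM without F16, 344 CPM without F1 and 354 CPM without F11 and F12. It was 66.4 CPM when scaled to exonic plus intronic totals, 298 with TMM factors and 871 with DESeq2 size factors, so it too was below or above the second block depending on the scaling. F7 is the cell with Olig1 and Slc1a2, and F16 the one with Csf1r.

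Scn1a was near 0 in the first BRP block, where 14 exonic counts were found over the 8 cells and 12 of them in BRP571 (0.612 CPM). In the second block it ran from 0.0895 CPM in BRP529, which is 2 counts, through a median of 66.2 to 297 CPM in BRP535. The other 11 cells of that block held at least 20.2 CPM, so only BRP529 overlapped the first block. BRP528, the cell with Gad1, was second highest at 273 CPM, and BRP542 followed at 179 CPM.

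Scn1a was concentrated in 2 of the F cells. F2 held 763 CPM and F1 457 CPM, more than any BRP cell. F24 held 30.2 CPM, and F6, F11, F7, F12 and F16 were between 0 and 2.49 CPM, which put the block median at 2.04 CPM, or at 16.4 CPM without F11 and F12. The GABAergic markers summed to at least 478 CPM in all 8 of these cells, so a low Scn1a level occurred beside GABAergic markers.

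Scn3a was detected in all 12 cells of the second BRP block, from 12.2 CPM in BRP537 through a median of 113 to 273 CPM in BRP539. In the first block it was 0 in 5 cells, at most 0.617 CPM in 2 others and 31.7 CPM in BRP567, which is 513 counts. That 1 cell made the blocks overlap, since BRP535 (30.5 CPM) and BRP537 lay below it. Of the F cells, F7 held 244 CPM and F2 53.5 CPM, and the other 6 cells were at or under 0.456 CPM. Scn3a and Scn1a were thus carried by different F cells apart from F2.

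Scn9a was almost without exonic counts. Over the 28 cells it had 44, of which 24 were in BRP537 and 14 in F24 (6.62 CPM), and the other 4 cells with a count held 1 to 3. It is also one of the 4 alpha members on chromosome 2 that share stretches of sequence. An annotated antisense gene, Gm13629, overlaps it and had 1299 exonic counts of its own. The kit of the cultured cells does not mark the strand, so reads of such a pair cannot be told apart there, and no strand setting was found for the counts.

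Per kb of exon, the order of the medians in the second BRP block was Scn2a1 (23.7 CPM per kb), Scn8a (16.2), Scn3a (9.05), Scn1a (5.94), Scn2b (4.83) and Scn3b (4.44), with Scn9a and Scn4b at 0. The cell ranges of each neighbouring pair among the first 6 overlapped. Percentiles of these medians were taken among the genes with a GENCODE model and an exonic count in any cell. The second-block medians per kb stood at the 90.6th percentile for Scn2a1, the 87.2nd for Scn8a, the 81.4th for Scn3a and the 76.6th for Scn1a. In the F block the order began with Scn2a1 (20.9 CPM per kb) and Scn8a (11.1), and the medians of the other 6 members were at or under 0.183. Without F11 and F12 the order of the first pair turned, with Scn8a at 22.5 and Scn2a1 at 11.9. In the first BRP block Scn3b (0.531) and Scn2a1 (0.502) led, followed by Scn8a (0.141), with the other medians at 0.

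The summed level of the 8 alpha genes analysed (the 5 members, Scn4a, Scn10a and Scn11a) was low in the first BRP block under every scaling tried, while the place of the F block against the second depended on the scaling. Scaled to exonic totals, it had a median of 1.43 CPM per kb in the first block (0.0113 to 4.55), 60.0 in the second (23.5 to 101) and 66.6 in the F block (6.33 to 186). The F median was 129 with TMM factors and 362 with DESeq2 size factors, beside 45.6 and 58.1 in the second block, and 44.7 beside 46.9 with exonic plus intronic totals. How that sum was made up differed between cells. In the second block the median shares were 40.3% for Scn2a1, 27.8% for Scn8a, 15.8% for Scn3a and 8.83% for Scn1a. Scn2a1 was the largest in 7 of the 12 cells, Scn1a in BRP528 and BRP535 (43.6% and 47.3%), Scn8a in BRP538 and BRP540 (40.2% and 44.3%) and Scn3a in BRP529 (37.9%). No alpha gene made up more than 63.3% of the sum in any of these cells.

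**Figure D2:**
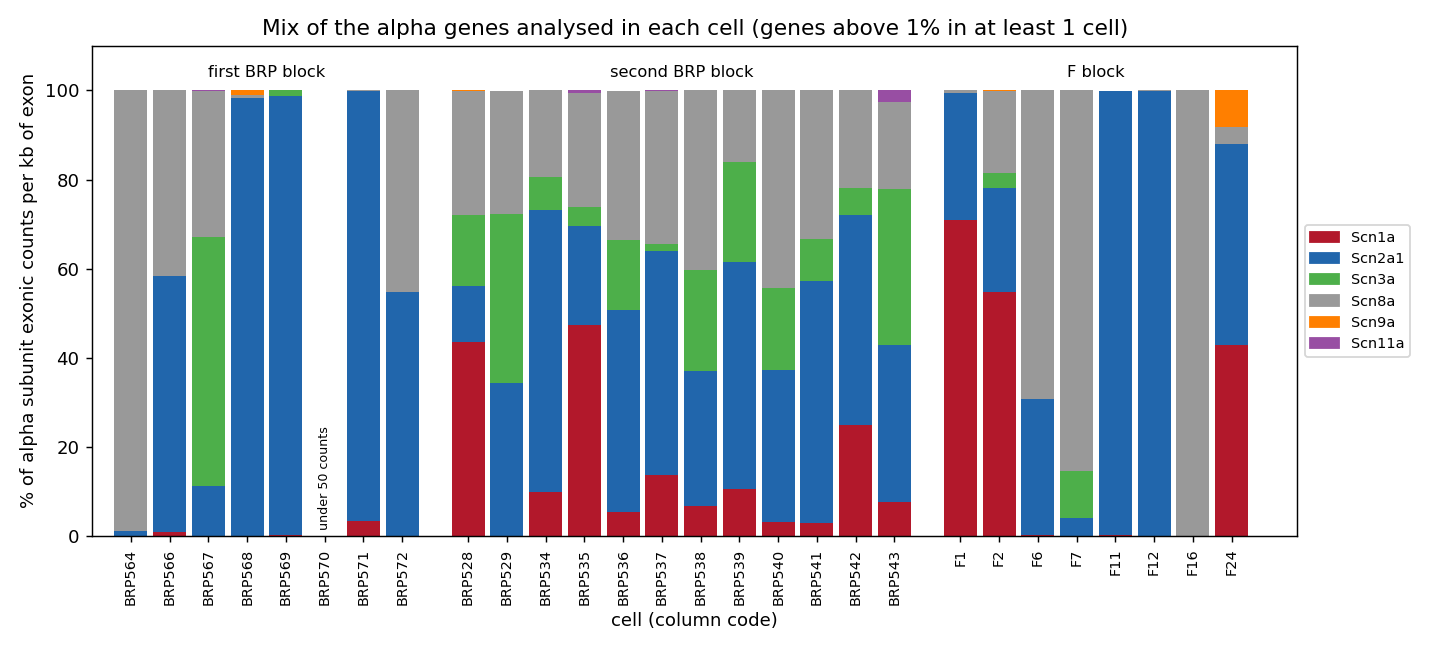
Share of each alpha subunit gene in the summed alpha exonic counts per kb of exon (vertical axis, percent) in each cell with at least 50 such counts (horizontal axis), grouped by block. The 12 cells of the second BRP block mix 4 genes with no gene above 63.3%, while 6 of the 8 F cells have 1 gene at or above 69.4%.

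The F cells were more one-sided. Scn8a made up 100% of the alpha sum in F16, 85.4% in F7 and 69.4% in F6. Scn1a made up 70.9% in F1 and 54.8% in F2, and Scn2a1 made up 99.6% in F11, 99.9% in F12 and 45.2% in F24. F11 and F12 are the near-alike pair and may not count as 2 cells. Of the 8 F cells, 7 had fewer exonic counts than any BRP cell (F1 was the exception), and the part of depth in these shares was not tested. In the 7 cells of the first BRP block with at least 50 alpha counts, Scn2a1 led in 5, Scn8a in BRP564 (98.8%) and Scn3a in BRP567 (55.9%).

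Among the beta members, Scn2b, whose protein is disulfide-linked to the alpha subunit, was not found in the first BRP block, with 0 exonic counts in all 8 cells. In the second block it ran from 0 in BRP529 through a median of 22.5 to 52.8 CPM in BRP543, with counts in 11 of 12 cells. Of the F cells, F6 held 173 CPM, F1 17.1 CPM and F2 9.21 CPM, F7 a single count, and the other 4 cells none. BRP529, at 0 for Scn2b and 2 counts for Scn1a, was 1 of the 2 cells of its block with high Aqp4. Without BRP528 and BRP529 the second-block median of Scn3b, described next, was 59.6 CPM instead of 24.2, and those of the other members moved by less than 1.5 times.

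Scn3b, which is not covalently bound to the alpha subunit, did not separate the blocks. In the first BRP block it ran from 0 through a median of 2.90 to 221 CPM in BRP568, and in the second from 0.475 through 24.2 to 228 CPM in BRP539. BRP568 thus nearly matched the highest cell of the second block, where levels fell into 5 cells at 83.0 to 228 CPM and 7 at 0.475 to 36.1 CPM. In the F block F6 held 157 CPM and F2 16.4 CPM, and the other 6 cells were at or under 0.456 CPM.

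Scn4b, known from cerebellar Purkinje cells, striatum and fast-spiking neurons for its part in resurgent current, was at the limit of the data. It had 6 exonic counts, spread over 4 cells of the second BRP block, and 0 in the first BRP block and the F block.

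Per kb of exon, the beta members mixed differently between cells. Among cells with at least 50 counts of the 3 beta members, Scn3b made up 100% of their sum in all 4 such cells of the first BRP block. In the 11 such cells of the second BRP block Scn3b led in 6, with up to 93.6% in BRP536, and Scn2b in 5, with up to 92.9% in BRP535. Of the 3 such F cells, Scn2b led in F1 (99.3%) and F6 (56.4%), and Scn3b in F2 (60.3%).

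**Figure D3:**
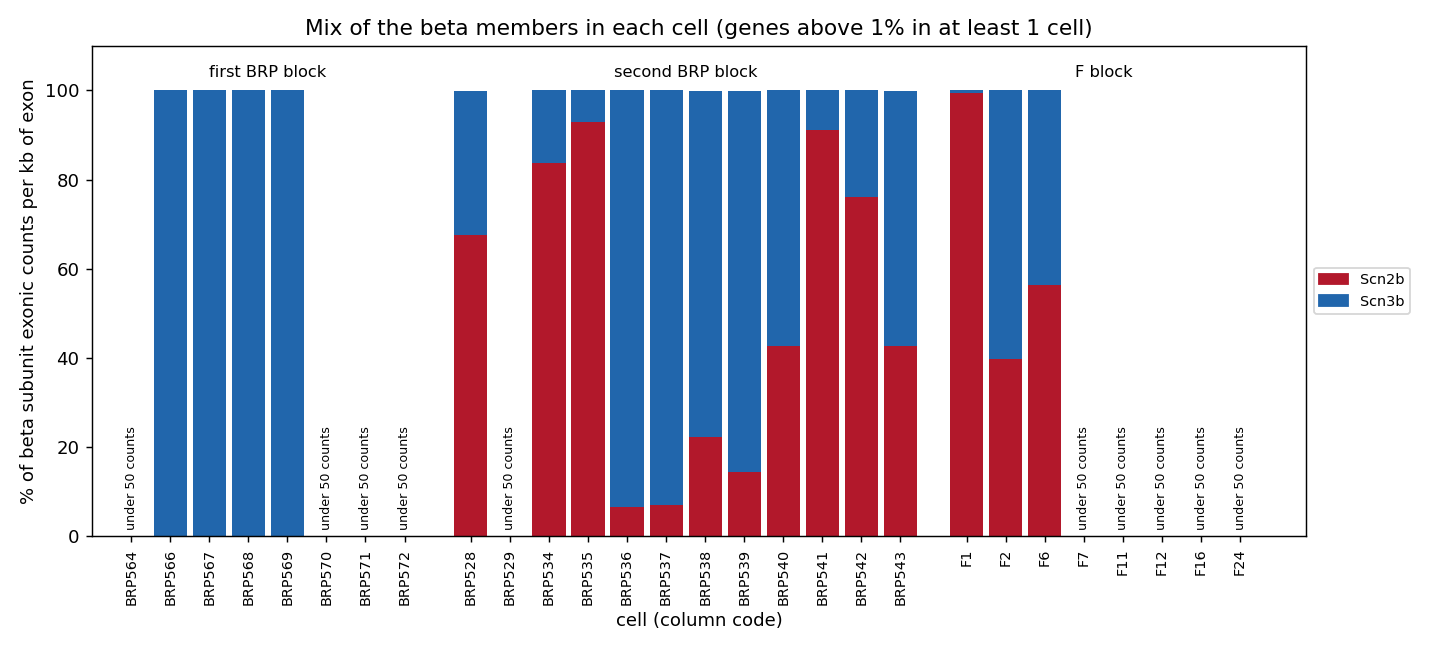
Share of Scn2b and Scn3b in the summed exonic counts per kb of exon of the 3 beta members (vertical axis, percent) in each cell with at least 50 such counts, grouped by block. Scn3b is alone in the 4 cells of the first BRP block shown and leads in 6 of the 11 of the second.

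At a minimum of 10 exonic counts, the cells of the second BRP block held a median of 6 of the 8 members (4 to 7), the F cells 3 (1 to 6) and the cells of the first BRP block 2 (0 to 4). Detection over all genes was also lower in the F cells. A cell had a count for 2338 to 7218 genes there, against 9869 to 12564 in the second block and 10985 to 12815 in the first. The share of all genes with 10 counts was not calculated, and the part of general detection in the member numbers was not tested. Every cell was also thinned to 838343 exonic counts, the total of F16, and here a minimum of 1 count was used instead of 10. Scn2a1, Scn3a, Scn8a and Scn3b were still seen in 12 of 12 cells of the second block and Scn1a and Scn2b in 11. The same thinning left Scn8a in 8 F cells, Scn2a1 in 7, Scn1a in 5, Scn3a in 4, Scn2b in 3 and Scn3b in 2.

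The 4 other genes of the family reported here were sparse, with exceptions in single cells. Scn7a, the gene of an atypical, sodium-sensing channel, held 131 CPM in BRP539 and 36.0 CPM in BRP536 and was under 3 CPM in the other 26 cells. Scn11a, a sensory neuron channel, reached 3.57 CPM in BRP543. Scn10a, also of sensory neurons, and Scn4a, the skeletal muscle channel, had 4 and 2 exonic counts in all.

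Introns gave another view of the alpha genes. An intronic count comes from RNA that still holds the intron, or from genomic DNA or another transcript in the same place. Scn1a had 36946 exonic and 134115 intronic counts over the 28 cells, and Scn8a, with introns of like total length (160315 against 158917 bases), had 106458 exonic and 18200 intronic counts. By block, introns made up 90.9% of the Scn1a counts in the first BRP block (140 of 154), 44.4% in the second (exact binomial 95% interval 43.9% to 44.8%, counting error only) and 91.1% in the F block. For Scn8a the shares were 23.5%, 18.7% and 4.70%, and for Scn3a 10.3%, 20.3% and 14.3%.

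Those block shares were carried by single cells. F11 held 60103 intronic and 7 exonic counts of Scn1a, F12 held 40190 and 0, and F7 held 9569 and 8. F1 went the other way, with 51 intronic and 6783 exonic counts. In F11 these were 1.56% of all intronic counts of the cell, which put Scn1a at rank 8 of 11615 genes with an intronic count, and in F12 1.59% and rank 8 of 10031. Without F11 and F12 the intronic share of Scn1a in the F block was 54.1%, and without F1 it was 96.3%. F11, F12 and F7 thus had abundant Scn1a intron signal beside an exonic level of at most 1.59 CPM.

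In the second BRP block the same gene ranged from 0.348% intronic in BRP534 (7 of its counts, beside 2006 exonic) and 27 beside 6325 in BRP535 to 96.2% in BRP529. Scn8a ranged from 0.217% to 50.4% over these cells and Scn3a from 0.0930% to 47.1%. BRP534 and BRP535 held 20 and 4 intronic counts of Scn3a and 12 and 43 of Scn8a, few beside 648 to 5523 exonic counts. Such low intronic counts were shared across the 3 genes in these 2 cells.

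**Figure D4:**
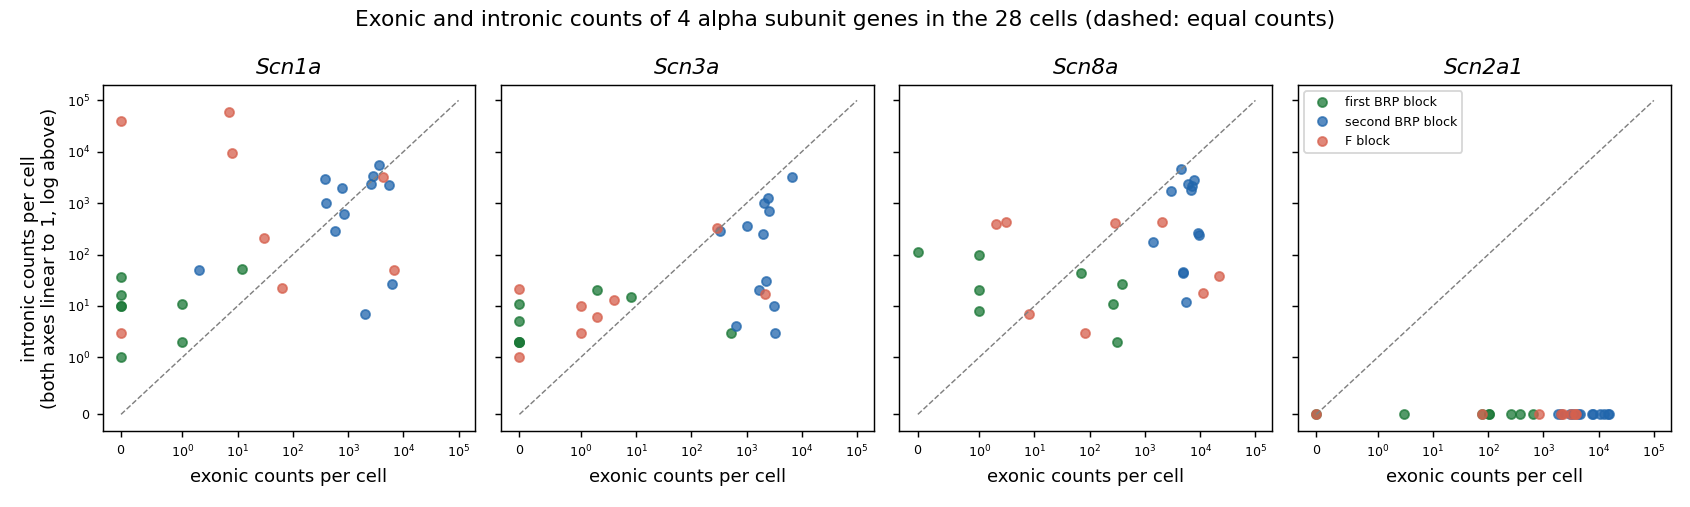
Exonic (horizontal axis) and intronic counts (vertical axis) of Scn1a, Scn3a, Scn8a and Scn2a1 in each of the 28 cells, coloured by block, with both axes linear to 1 and logarithmic above and a dashed line at equal counts. For Scn1a, F11, F12 and F7 lie at the upper left, with 9569 to 60103 intronic counts and at most 8 exonic counts, and every cell of Scn2a1 lies at 0 intronic counts.

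Scn2a1 had 0 intronic counts in all 28 cells beside 105252 exonic counts, which allows an intronic share of up to 0.0035% (exact binomial 95% interval). This was not particular to the gene. Scn2a1 lies in an unbroken stretch of 108 plus-strand genes with introns, all with 0 intronic counts in all 28 cells. This stretch, 37266951 to 80400525 of chromosome 2, was drawn by going out from Scn2a1 to the nearest plus-strand genes with an intronic count. Of the 99 minus-strand genes there, 96 had some. Nothing about splicing of Scn2a1 can be read from these tables.

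Scn9a was the reverse case, with 1749 intronic beside 44 exonic counts (97.5%). BRP543 held 413 of the intronic counts, F24 398, BRP541 306 and BRP566 178. F24 was thus among the highest cells for both exonic and intronic Scn9a counts, whereas BRP541 and BRP566 had no exonic count. Scn10a, likewise almost without exonic counts, had 3022 intronic counts, 1640 of them in BRP528, 641 in F11 and 358 in F12.

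The beta genes had few intronic counts. Their introns total 7633 to 16941 bases, and the part of intron length in these counts was not tested. Scn2b had 2 beside 8080 exonic counts and Scn3b 322 beside 24417 (1.30%). Of the Scn3b intronic counts 180 came from BRP542, 39 from F12 and 30 from F11. An overlapping long noncoding gene on the other strand of Scn2b, Gm10684, had 5601 intronic and 9 exonic counts. Gm10684 (chr9:45107176-45135606, minus strand) is longer than Scn2b, and where within it these counts lie is not given by the tables.

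The 15 channel partners, chosen with the members, cover the proteins that hold the channels at the axon initial segment, bind their tail, remove them or repress their genes. In both BRP blocks 12 of the 15 had a count in every cell, in the F block 1 (Ank3), and Fgf11 had none in any cell. Of the 23453 genes, each BRP cell had a count for 9869 to 12815 and each F cell for 2338 to 7218. The part of this lower detection in the partner counts was not tested. Ank3, the ankyrin that anchors the channels at the initial segment, had medians of 0.132, 123 and 124 CPM in the first BRP, second BRP and F blocks. Its second-block range of 30.5 to 642 CPM lay above the first block, whose highest cell was BRP568 at 12.0 CPM. Such a gap was found for 3.7% of the 11105 genes compared above. Ank3 is 1 of 15 partners, so its gap is a description and not a test. Nrcam, an adhesion molecule of the same assembly, had medians of 66.0, 188 and 1.33 CPM, and Cntn1, a contactin that binds the channels, 23.3, 356 and 2.13 CPM. These low F medians stood beside single high F cells: Cntn1 reached 1935 CPM in F6 and 1785 CPM in F1, above every BRP cell, and Nrcam 289 CPM in F1 and 280.4 CPM in F2. The F median of Nrcam was 32.1 CPM without F11 and F12.

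Fgf12 and Fgf13, intracellular FGF homologues that bind the channel tail and shift its inactivation, were highest in different cells. Fgf12 had medians of 10.6, 102 and 85.1 CPM and reached 1160 CPM in F11 and 1079 CPM in F12, without which its F median was 8.51 CPM. Fgf13 had medians of 13.4, 175 and 1.31 CPM, or 2.60 CPM in the F block without that pair, with 1558 CPM in BRP528, 769 CPM in F2 and 208 CPM in F7. Nedd4, a ubiquitin ligase of the family that removes the channels from the membrane, was higher in the first BRP block than in the second by median (587 against 260 CPM) and had 96.0 CPM in the F block (569 without F11 and F12), with 8655 CPM in F24. Its relative Nedd4l had medians of 22.6, 58.3 and 0.999 CPM. Csnk2a1, a casein kinase 2 subunit that promotes the binding of the channels to ankyrin, was alike in the BRP blocks (50.5 and 45.3 CPM) and had 13.9 CPM in the F block (28.4 without F11 and F12).

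The genes whose level over the 28 cells was most like that of each member were ranked by Spearman's rho among 10644 genes. For Scn1a they were Pianp (0.88), Hecw1 (0.87) and Chga (0.86), for Scn2a1 Gria2 (0.84), Slc12a5 (0.82) and Ntrk3 (0.82), and for Scn3a Large (0.86), Shc2 (0.84) and Ddn (0.83). For Scn8a they were Cpne6 (0.88), Mycbp2 (0.86) and Tenm2 (0.78), for Scn2b Ncdn (0.86), Nrsn1 (0.85) and Ptprn (0.84), and for Scn3b Kif3c (0.79), Mrpl30 (0.77) and Atp6v0b (0.76). These values describe the cells at hand, which differ by block in depth and preparation. Within the 12 cells of the second block most were lower: Pianp fell to 0.15 for Scn1a and Shc2 to 0.035 for Scn3a, while Tenm2 stayed at 0.85 for Scn8a.

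Among the members themselves, rho over the 28 cells was highest between Scn1a and Scn2b (0.73), and within the second block that pair had 0.084. Scn2a1 and Scn8a had a rho of 0.82 over the 20 BRP cells, 0.52 within the second block and -0.43 over the F cells. The F value includes the near-alike pair F11 and F12. They were the highest F cells for Scn2a1 (857 and 835 CPM) and the lowest for Scn8a (0.683 and 0.739 CPM). No value without them was calculated, so no opposition of the genes is read from its sign. Scn1a and Scn3a had -0.50 within the second block.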

How the data were processed

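The tables that the authors deposited hold raw counts, whole numbers with no normalization, one for exons and one for introns of each gene. The submitters' processing notes list STAR 2.4.0, bcl2fastq 2.17 and mm10. The counting tool, annotation and strand setting are not given in the sources used here. Of the 28 columns, 0 matched a sample label, so the cells were treated as 1 pooled sample, described per cell, by range and by median, and the planned edgeR test of labelled groups was not made. The genes, lists and blocks were chosen with earlier results of these data known.

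Exonic counts were divided by the exonic total of the cell (CPM). Lengths, positions and transcripts came from GENCODE M21 on GRCm38, by symbol (98.5% of 23453 symbols had a model). Shares between genes used union exon length and cells with at least 50 alpha or beta counts. Binomial 95% intervals and floors of 3 counts cover counting error only. Exonic totals were 838343 to 26770944 counts per cell, so 1 count is worth more in the F cells. Named genes were all members, 4 other family genes (the rest of that list is not reported here), the 8 partners with most exonic counts and, for members with a count in at least 14 cells, the 3 genes of highest Spearman's rho. Window comparisons used 50 bases.

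Alternatives were TMM factors (edgeR 4.0.16), DESeq2 1.42.0 size factors, other totals, count minimums of 5 and 10, thinning, other lengths and cells left out. Those that leave out or merge F11 and F12, BRP528 and BRP529, or F16, and the scalings of the summed alpha level, were added after the data were examined. Python 3.11.15, numpy 2.4.6, pandas 2.3.3, scipy 1.17.1 and R 4.3.3 were used, and the calculations were tested on simulated data.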

Additional observations from a re-analysis of the deposited data

Results flagged for a closer look

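Far cells were looked for in the first BRP block and the F block, on log2(CPM + 1), and the second BRP block was not checked. Of 13 sets of values, 1 gene in 1 block of cells each, 5 had a cell far from the nearest other cell. Its gap was over the 95% critical value for its share of the range, which chance passes in about 1 of 20 sets of normally distributed values. Many of these values are 0 or a few counts, so that rate does not apply to them, and whether 5 is more than chance gives was not tested. In the first BRP block, Scn3a was 31.7 CPM (513 counts) in BRP567, with the next cell at 0.617 CPM. Scn1a was 0.612 CPM (12 counts) in BRP571 of the same block, with the next cell at 0.0771 CPM. Scn9a was 0.0606 CPM in BRP568, which is a single count beside 0 in the other cells. In the F block, Scn2a1 was 0 in F16, the shallowest cell, with the next cell at 36.4 CPM and a limit of 3.58 CPM for a count of 0. Scn9a was 6.62 CPM (14 counts) in F24, with the next cell at 0.181 CPM.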

How the results depend on the processing

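No paired analysis was possible because the columns carry no replicate numbers and no result comes from a test. Of the summary values under an alternative, 260 stayed within the SD over the cells of the block, the binomial interval or a ratio of 1.5, and 32 moved. The numbers of cells with a count of each member were less stable. Under count minimums of 5 and 10 and after thinning, 46 of these stayed within a ratio of 1.5 and 26 moved. The SD over the F cells is large, so that medians there could change by over 1.5 times and still count as unmoved, as given beside each gene. DESeq2 size factors gave a Scn2a1 median of 1127 in the F block and a summed alpha level of 362 CPM per kb there, with 129 by TMM factors. Without F16 the median share of Scn8a in the alpha sum of the F block was 3.79% instead of 11.2%, and without F11 and F12 it was 43.9%, with Scn1a at 21.6% instead of 0.239%. The median number of members per cell was 4 in the first BRP block and 5.5 in the F block at 1 count, 2.5 in the first BRP block at 5 counts, 2 there at 10 counts or after thinning, and 3 in the F block at 10 counts. As a median over cells with at least 20 counts instead of a sum, the intronic share of Scn1a was 51.3% in the second BRP block and 87.4% in the F block. In the order first BRP, second BRP and F, the same medians were 65.2%, 16.3% and 52.9% for Scn3a, 38.4%, 15.8% and 17.4% for Scn8a, 100% in each for Scn9a, and 0.595%, 0.359% and 47.4% for Scn3b, with 0% for Scn2b in the F block. Without F11 and F12 the F block shares were 54.1% for Scn1a, 2.52% for Scn8a and 0.501% for Scn3b, and without F1 the share of Scn1a was 96.3%. Over all genes with a count, the shares with no overlap were 2.69% for the first BRP block above the second, 16.3% for it above the F block, 2.12% and 7.24% for the second BRP block above the first and above the F block, and 0.0256% for the F block above the first (0.0991% with TMM factors). Depth limits single counts in the F cells most.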
